A study of Homo sapiens with 4 samples.

Results

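The proteins that bind and remove N6-methyladenosine (m6A) are themselves made from mRNAs that can carry the mark. The m6A peaks of 7 such genes were examined in MDA-MB-231, a long-established cell line from a human triple negative breast cancer: the readers YTHDF1, YTHDF2, YTHDF3, YTHDC1 and YTHDC2, and the erasers FTO and ALKBH5. The genes were chosen by name, and their peaks were found in the deposited list by Ensembl gene ID. All 7 symbols matched an ID. Together they had 10 of the 20261 listed peaks, on 5 of the 10140 listed gene IDs.

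The mark is laid down on nascent mRNA by a methyltransferase complex built around METTL3 and METTL14. Proteins with a YTH domain recognise it through a pocket of tryptophan residues that holds the methylated base. YTHDF1, YTHDF2 and YTHDF3 are close cytoplasmic paralogs linked to translation and decay of methylated mRNA, YTHDC1 is nuclear and acts in splicing and export, and YTHDC2 is a helicase best known for its role in meiosis. FTO and ALKBH5 are iron-dependent dioxygenases that take the methyl group off again.

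The series held 4 libraries of poly(A) RNA, 2 of input RNA and 2 of RNA immunoprecipitated (IP) with an anti-m6A antibody, all from cells labelled shNS, the study's name for its control shRNA. The treatment field of the IP libraries names YTHDC1, while titles and protocol describe an m6A IP, and titles were followed here. The deposited list gives 1 score per peak for all libraries together, so no value below has a replicate error and no group comparison was tested. The score was read as a p-value for enrichment in the IP, although the file does not name it, and it could be an FDR. The smaller the score, the stronger the peak was taken to be, and a score listed as 0, too small to be stored, was placed at a −log10 of 323, which was also the upper limit for the smallest scores above 0. The depth behind a peak is unknown, and the sequence under the peaks was not analysed here.

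A listed peak was found for 5 of the 7 genes. All 3 YTHDF readers had peaks, whereas only YTHDC1 of the YTHDC readers and only ALKBH5 of the erasers did. The list is divided unequally between the strands, with 5613 plus-strand and 14648 minus-strand peaks. Each gene was therefore read against genes of its own strand. Of the 5 members on the plus strand (YTHDF2, YTHDF3, YTHDC2, FTO, ALKBH5), 3 had a peak, while 29.4% of 8067 plus-strand protein-coding RefSeq genes did. Both minus-strand members, YTHDF1 and YTHDC1, had one, against 55.6% of 7746 minus-strand genes. Counts this small were not tested against these shares. The strand of YTHDF3 was taken from the peak list, and it is not among the 8067 genes.

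**Figure D1:**
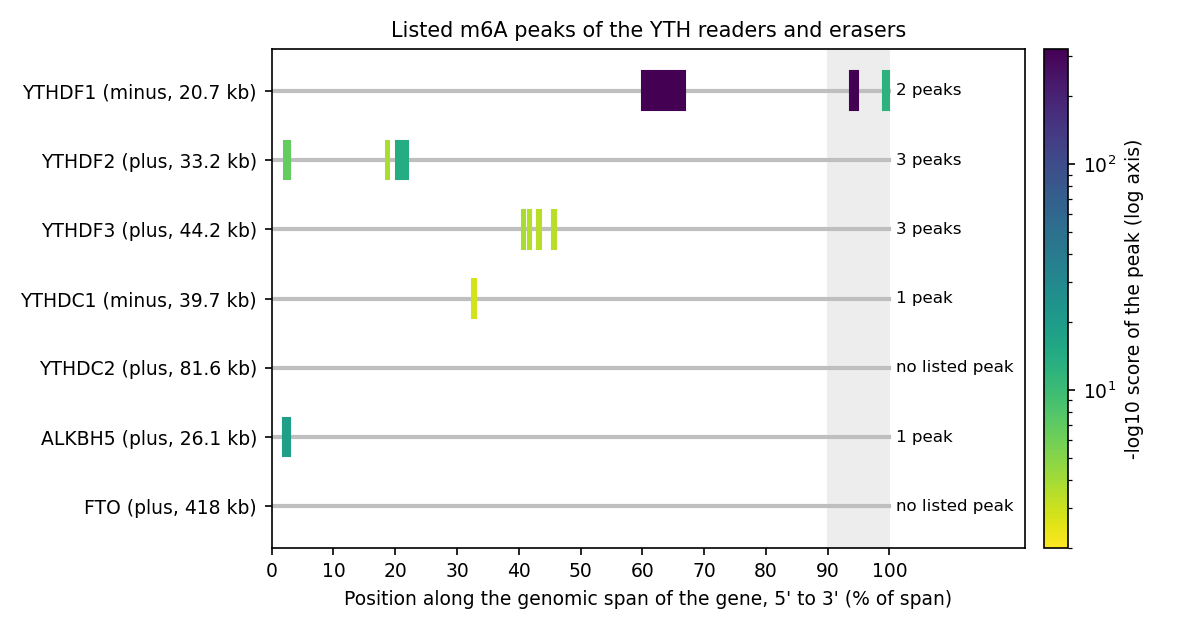
Listed m6A peaks of the 7 genes along each gene's genomic span from 5′ to 3′ (x axis, percent of the span, introns included), with strand and span length beside each name. Boxes are peak blocks, drawn with a minimum width so that short ones stay visible, coloured by the −log10 score on a log scale, and the grey band is the final 10% of the span. Only YTHDF1 has blocks in the grey band, while YTHDC2 and FTO have no listed peak.

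When only peaks no weaker than the list median (score 5.2e-08) were counted, 3 of the 7 genes had one. These were YTHDF1 on the minus strand, where 43.8% of genes had such a peak, and YTHDF2 and ALKBH5 on the plus strand, where 12.2% did. At this stricter level YTHDF3 and YTHDC1 had no peak left, and the number of peaks fell from 10 to 4. The YTHDF readers held 8 of the 10 peaks and 3478 of the 3867 spliced bases in peaks (89.9%). YTHDF1 alone accounted for 1920 of these bases.

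YTHDF1 (ENSG00000149658), the paralog best known for promoting translation, had the strongest and longest peak of the group. This peak lay on chromosome 20 from 63196477 to 63203737 (hg38, minus strand) and was listed at 0. It comprised 1709 spliced bases in 2 blocks. The upstream block of 1451 bases ran from 63202287 to 63203737, and after a gap of 5552 bases the downstream block of 258 bases ran from 63196477 to 63196734. Only 83 of the 14648 minus-strand peaks (0.567%) were at least as long, and 23 of these were also listed at 0.

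The other YTHDF1 peak, from 63195429 to 63195639, was 211 bases long with a score of 4e-13. Its last base was the 3′ end of the RefSeq span of the gene. It lay 837 bases downstream of the long peak. Both peaks passed the list median. Peaks covered 9.27% of the 20.7 kb span of YTHDF1. Of the minus-strand genes with a listed peak, 6.40% had as many bases in peaks.

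YTHDF2 (ENSG00000198492), which recruits a deadenylase complex to methylated mRNA, had 3 peaks on chromosome 1 (plus strand) with 1106 bases. The first, from 28737288 to 28737586, was 299 bases long with a score of 1.9e-07. It began 664 bases downstream of the 5′ end of the RefSeq span, and 348 bases downstream of a second RefSeq start of the gene. The second, from 28742745 to 28742924, was 180 bases long and weak (0.00018). The third, from 28743312 to 28743938, was 627 bases long and the strongest of the gene (6.3e-15). It was the only YTHDF2 peak past the list median, and held 56.7% of the gene's peak bases. The 180 and 627 base peaks were 387 bases apart within a stretch of 1194 bases. Of the plus-strand genes with a listed peak, 3.64% had as many bases in peaks as YTHDF2.

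YTHDF3 (ENSG00000185728), which acts together with the other YTHDF proteins, also had 3 peaks, on chromosome 8 (plus strand), but all were weak. They were of nearly equal length (150, 151 and 151 bases) and of similar score (0.00012, 0.00031 and 0.00038). The first ran from 63186521 to 63186670 and the second from 63186939 to 63187089. The most downstream peak (63187687 to 63188826) was split by a gap of 989 bases into blocks of 59 and 92 bases. All 3 fell within 2306 bases of the 44.2 kb span. None passed the list median.

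YTHDF2 and YTHDF3 thus had the same number of peaks on the same strand, but differed in smallest score and extent. The smallest score was 6.3e-15 for YTHDF2 and 0.00012 for YTHDF3, and the bases in peaks were 1106 and 452. The score goes with peak length. Among plus-strand peaks within 20% of its length, 67.6 to 76.2% were as strong as each YTHDF2 peak or stronger. For the YTHDF3 peaks these shares were 48.3 to 73.9%, so YTHDF2 was not the stronger for its peak lengths. The list has no replicate values against which the difference in score or extent could be tested. The authors' alignment allowed reads that map to several places, and the part of reads shared between the paralogs was not tested. The annotated pseudogenes YTHDF1P1, YTHDF2P1, YTHDF3P1 and FTOP1 had no listed peak, which gives no measure of reads shared between the YTHDF genes.

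Near YTHDF3, 2 peaks were listed for YTHDF3-DT, a divergent long non-coding RNA whose span ends 110 bases from the start of YTHDF3, a gene chosen after its values were seen. These minus-strand peaks ran from 63167994 to 63168143 (score 0.00071) and from 63168263 to 63168322 (0.00031). They shared no base with the peaks of YTHDF3, which began 17968 bases inside its span.

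**Figure D2:**
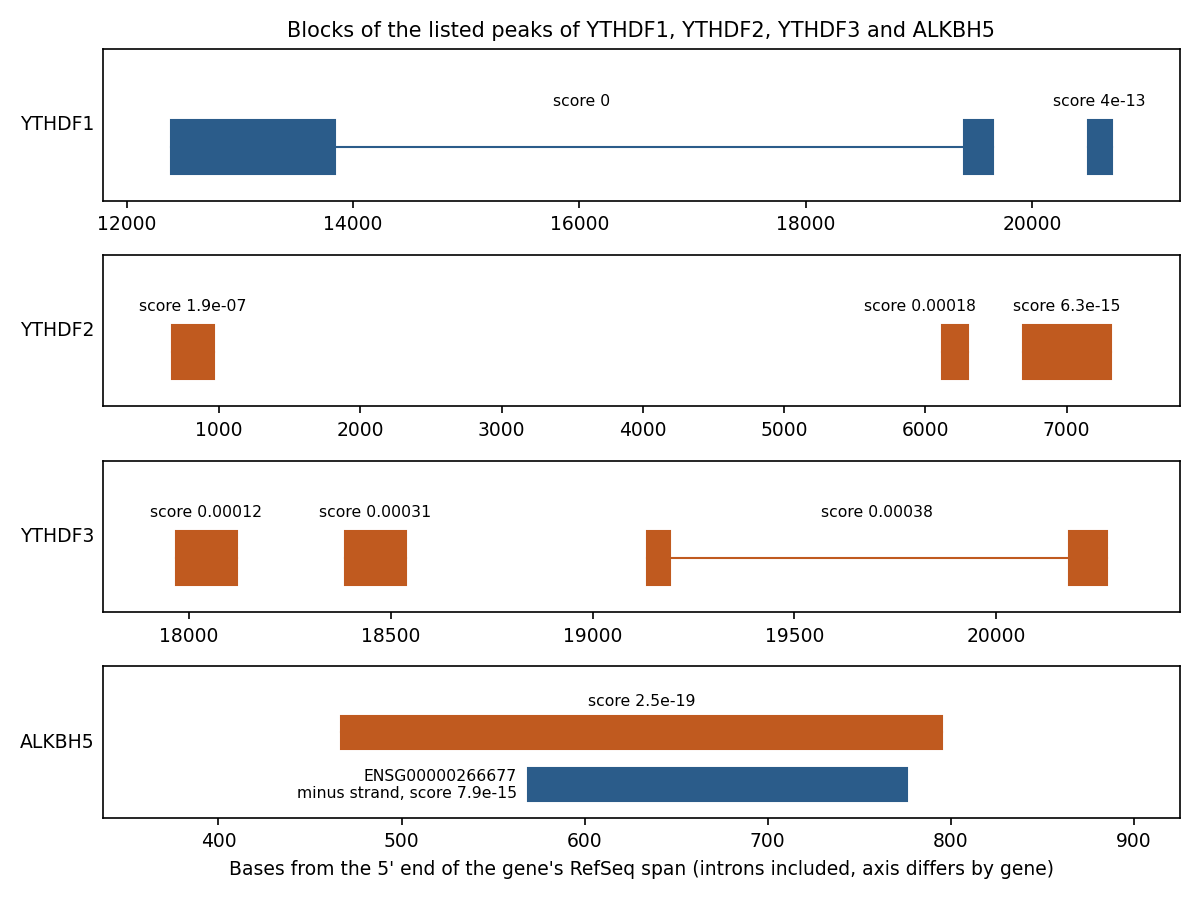
Blocks of the listed peaks of YTHDF1, YTHDF2, YTHDF3 and ALKBH5, in bases from the 5′ end of each gene's RefSeq span (x axis, different range for each gene). Orange boxes are plus-strand and blue boxes minus-strand blocks, lines join blocks of 1 peak, and the score is written above each peak. The last YTHDF1 block reaches the 3′ end of the gene, and the ALKBH5 peak overlaps the minus-strand peak of ENSG00000266677 over 207 bases.

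YTHDC1 (ENSG00000083896), the nuclear reader that the study depleted in other experiments, had a single peak of 61 bases on chromosome 4 from 68337078 to 68337138 (minus strand). Its score was 0.0014, close to the weak end of the list, where 8.49% of all peaks had a score as large or larger and the largest was 0.0089. Of minus-strand peaks, 6.48% were as short. The peak lay 12952 bases from the 5′ end and 26691 bases from the 3′ end of the 39.7 kb span. It covered 0.154% of that span.

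YTHDC2 (ENSG00000047188) had no listed peak, and no peak of any gene lay inside its 81.6 kb span on chromosome 5 (113513694 to 113595284). The nearest listed peaks belonged to MCC, 486 kb away on one side, and TRIM36, 1531.1 kb away on the other. FTO (ENSG00000140718) likewise had none, and its 418 kb span on chromosome 16 (53703963 to 54121941) held no peak of another gene. The nearest peaks were in RPGRIP1L, 11.6 kb away, and in IRX3, 162 kb away. All 4 of these neighbours are on the minus strand.

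Absence from the list was common for plus-strand genes of these spans. Among plus-strand protein-coding genes with a span of 50 to 100 kb, as for YTHDC2, 29.9% had a listed peak (95% Wilson interval 27.4 to 32.5%). For spans of 100 kb or more, as for FTO, the share was 31.3% (28.9 to 33.7%). On the minus strand the shares for the same spans were 63.5% and 63.1%. The list gives no expression, so absence of the mark cannot be told apart from low expression of the transcript or from too few reads. Nor can it be told apart from the unequal division of the list between the strands.

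ALKBH5 (ENSG00000091542), an eraser that localises to the nucleus, had 1 peak on chromosome 17 from 18184295 to 18184622 (plus strand). It was 328 bases long with a score of 2.5e-19 and began 467 bases from the 5′ end of the 26.1 kb span. It was the strongest plus-strand peak of the group. Over 207 of its bases (63.1%) it overlapped a peak of the minus-strand gene ENSG00000266677, for which no symbol was given. The shared bases were the whole second block of that peak (18184397 to 18184603), whose first block of 34 bases lay 6031 bases away. The score of the minus-strand peak was 7.9e-15, so its −log10 was 0.758 of that of ALKBH5.

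Such sharing was found more often among strong plus-strand peaks than among all of them. Of the 788 plus-strand peaks with a score at or under that of ALKBH5, 308 (39.1%, 95% Wilson interval 35.7 to 42.5%) shared bases with a minus-strand peak, against 17.8% of all plus-strand peaks. The 788 peaks are part of the 5613 plus-strand peaks, and the cut was the score of ALKBH5 itself. Peak length, which goes with score, was not matched, so a link of sharing with strength itself was not tested. Which of the 2 transcripts the reads came from was not tested. Without peaks of this kind ALKBH5 had no peak, and 4 of the 7 genes kept one. The share of all protein-coding genes that kept a peak in this way is not given here, so this count describes the members only. None of the other 9 member peaks shared a base with the opposite strand. Sharing was the less common case among all plus-strand peaks (17.8%), and the share for minus-strand peaks is not given here.

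Ordered by the smallest score, YTHDF1 (0) came first, followed by ALKBH5 (2.5e-19), YTHDF2 (6.3e-15), YTHDF3 (0.00012) and YTHDC1 (0.0014). No neighbours in this order could be told apart by a replicate error. The upper limit of the −log10 score (323), where YTHDF1 lay, was reached by 389 of 6624 minus-strand genes (5.87%, 95% Wilson interval 5.33 to 6.46%), of which 386 had a peak listed at 0. The share of genes with a score at or under that of the member was, for ALKBH5, 19.8% of 3516 plus-strand genes (18.5 to 21.1%), for YTHDF2 24.1% (22.7 to 25.5%) and for YTHDF3 73.0% (71.5 to 74.5%). For YTHDC1 it was 96.1% of minus-strand genes (95.6 to 96.5%). By this score YTHDF1 and YTHDC1 therefore sat at opposite ends of the genes of their strand. The ranking does not take peak length into account. Among minus-strand peaks of like length the shares were 20.7% for the long YTHDF1 peak and 49.8% for the YTHDC1 peak. The places of ALKBH5 and YTHDF2 depended on the strand used as reference: among genes of both strands the shares were 41.3% and 45.9%. Among the plus-strand genes that also had 3 peaks, 39.1% had a score at or under that of YTHDF2 and 97.7% at or under that of YTHDF3.

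**Figure D3:**
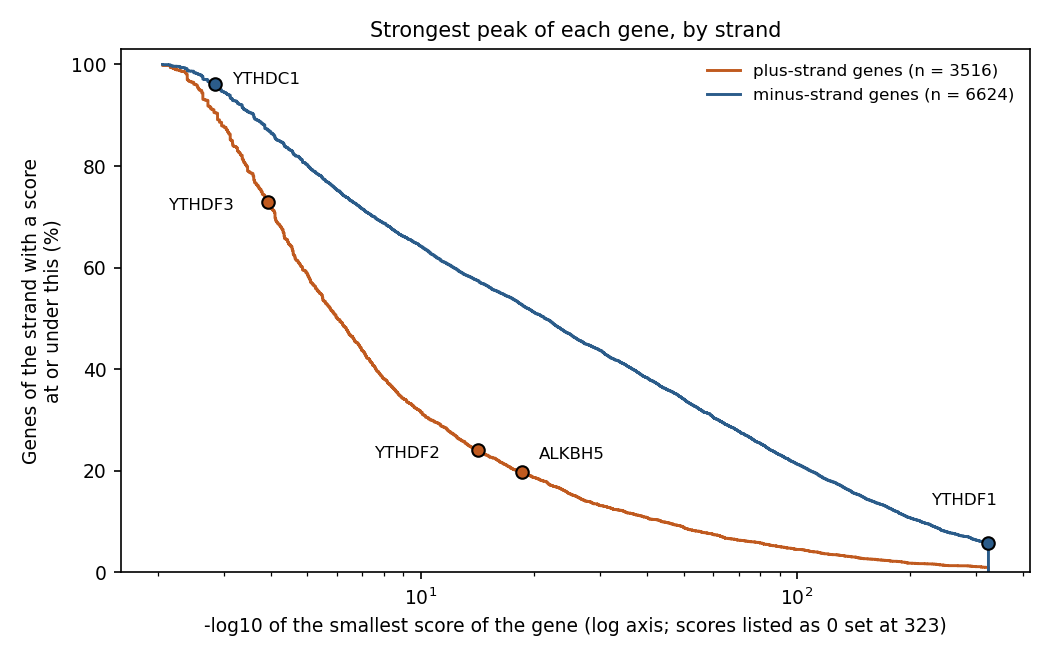
Share of listed genes of each strand (y axis, %) whose smallest score is at or under a given value, against the −log10 of that score (x axis, log scale, scores listed as 0 at 323). Lines are the 3516 plus-strand and 6624 minus-strand genes, and points are the 5 members with a peak. YTHDF1 lies at the strong end (5.87%) and YTHDC1 at the weak end (96.1%) of the minus strand, and YTHDF2 (24.1%) and ALKBH5 (19.8%) lie low on the plus-strand line. Peak length is not taken into account.

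Longer peaks in the list had smaller scores: the median −log10 score was 2.82 for minus-strand peaks near the length of the YTHDC1 peak and 143 for those near that of the long YTHDF1 peak. The member peaks spread along this relation. Their spliced lengths ranged from 61 to 1709 bases with a median of 196, and 8 of the 10 lay in 1 block. In YTHDF2 the order of length was the order of strength: 627 bases with a −log10 score of 14.2, 299 bases with 6.72 and 180 bases with 3.74. Each member peak was therefore set beside same-strand peaks within 20% of its length. The YTHDC1 peak then lay in the middle, with 49.8% of 948 peaks as strong or stronger. The 627 base peak of YTHDF2 was weaker than most of its length, since 67.6% of 247 peaks were as strong or stronger and their median −log10 score was 28.8. The long YTHDF1 peak was matched or exceeded by 20.7% of 179 peaks and the ALKBH5 peak by 35.1% of 893 peaks. For the 3 YTHDF3 peaks the shares were from 48.3% to 73.9%. The 299 and 180 base peaks of YTHDF2 were also weaker than most of their length, with shares of 75.3% and 76.2%. For the 211 base peak of YTHDF1 the share was 27.5%.

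**Figure D4:**
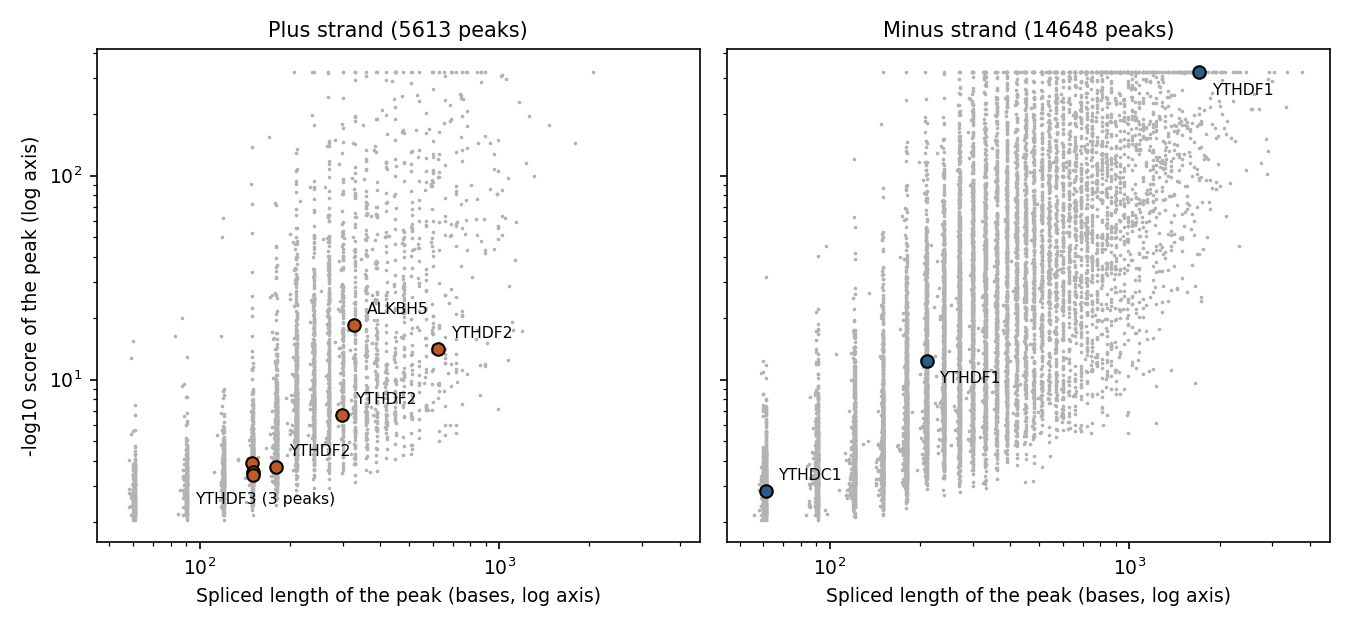
Spliced length (x axis, bases, log scale) against −log10 score (y axis, log scale, scores listed as 0 at 323) of all listed peaks, grey, by strand, with member peaks as coloured points. The 3 YTHDF3 peaks lie together at 150 and 151 bases, the YTHDC1 peak is among the shortest, and the long YTHDF1 peak of 1709 bases is at the upper limit of the score.

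To locate the peaks, the midpoint of each was expressed as a percentage of the gene's genomic length, with introns counted. All 10 lay wholly inside the RefSeq span. The reference was the 15944 listed peaks of protein-coding genes that also lay wholly inside the span. Of these, 37.4% lay in the final 10% of the span and 29.5% in the first 50%. Peaks that ran past a gene end were left out of this reference. Of the 10 member peaks 1 lay in the final 10% (the 211 base peak of YTHDF1, at 99.5%) and 8 lay in the first 50%. The members on the plus strand contributed 7 of these 8: the peaks of YTHDF2 were at 2.45, 18.7 and 21.1% of the span, those of YTHDF3 at 40.8, 41.7 and 44.5%, and that of ALKBH5 at 2.42%. YTHDC1 was at 32.7%. Peaks of 1 gene are not independent, so the genes were also counted. Only genes with all their peaks inside the span entered this count. Among such plus-strand protein-coding genes with 3 peaks, 26 of 237 (11%, 95% Wilson interval 7.60 to 15.6%) had all peaks in the first 50%. YTHDF2 and YTHDF3 were among these 26. For such plus-strand genes with 1 peak, as ALKBH5, the share was 27.6%.

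The long YTHDF1 peak had its midpoint at 77.4%, inside the gap between its blocks. The block of 1451 bases was centred at 63.4% of the span and the block of 258 bases at 94.3%. Which exon, coding sequence or UTR a peak fell in was not analysed here, and these positions depend on where introns lie.

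Homologs of the erasers and the m6A writer genes were counted in the same way. Of 7 further AlkB family genes, homologs of the 2 erasers, 5 had a peak. These were the 5 minus-strand genes, a strand on which 55.6% of protein-coding genes had a peak, and the 2 on the plus strand, where 29.4% did, had none. ALKBH4 had the smallest score, with a single peak listed at 0. Of 9 writer genes, 8 had a peak with 33 peaks in all, and METTL14 had none. By strand these were 4 of 5 plus-strand and 3 of 3 minus-strand genes, and 1 whose strand was not in the table used. The strongest was ZC3H13, a scaffold of the writer complex, with 8 peaks and a smallest score of 0. Past the list median, a peak remained for 5 of 5 minus-strand AlkB homologs. Among writer genes it remained for 3 of 5 on the plus and 3 of 3 on the minus strand. The writer gene whose strand was not in the table used also kept one, which made 7 of 9 writer genes. The shares over all protein-coding genes were 12.2% for the plus and 43.8% for the minus strand. The readers and erasers had such a peak in 2 of 5 plus-strand and 1 of 2 minus-strand genes. The lists differ in strand and were not compared by a test.

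The protein-coding genes most like each member were sought by strand, number of peaks and nearest smallest score, with ties decided by bases in peaks. For YTHDF1 this was ZNF768, with 2 peaks, a smallest score of 0 and 1920 bases, out of 119 genes tied at the upper limit of the −log10 score. For YTHDC1 it was DNLZ, with 1 peak of 61 bases and a score of 0.0014. For YTHDF2 it was FAM53C (3 peaks, 6.3e-15, 630 bases), for YTHDF3 FRMD8 (3 peaks, 0.00012, 661 bases) and for ALKBH5 CCM2 (1 peak, 2.5e-19, 270 bases).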

How the data were processed

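m6A-seq was performed by the authors on input and anti-m6A IP libraries from MDA-MB-231 cells. They aligned reads with STAR to GENCODE v33 (build hg38 per the labels), called peaks with exomePeak at its defaults from IP against input, and kept peaks past thresholds of fold enrichment and FDR. The deposited score of each peak, 1 value for all 4 libraries, was used as a p-value, although an FDR is possible. Depth per sample is not given by the list, and intervals cover counting error over genes or peaks only.

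Gene IDs without version were matched to symbols (10103 of 10140). Spans and biotypes came from RefSeq (GRCh38.p14), and strand from its promoter table or, for YTHDF3, the peak list. RefSeq and GENCODE can differ in gene ends. Coordinates count from 1. Opposite-strand peaks were taken to overlap if blocks shared at least 1 base. Shares carry 95% Wilson intervals (scipy 1.17.1, Python 3.11.15). No test was run. Functions were checked on made-up peaks with known answers.

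The members and lists were chosen with earlier results of these data known. Named were all members and their peaks, genes overlapping them, the gene most like each member, and the gene with the smallest score of each list. METTL14, YTHDF3-DT, the pseudogenes and the genes nearest to YTHDC2 and FTO were added after values were seen. Alternatives restricted peaks to the list median, merged them, dropped overlaps or the second part of the list, or changed the reference genes or the point of a peak used for position. The comparison with peaks of like length was added after the data were examined. No column was left out as belonging to no sample.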

Additional observations from a re-analysis of the deposited data

How the results depend on the processing

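Merging left 10 peaks and the first part of the list held all 10. Peaks at or under the list median numbered 4, on 3 genes (YTHDF1 2, YTHDF2 1, ALKBH5 1). Dropping peaks shared with the opposite strand left 9 peaks on 4 genes, without a share over all genes beside this count. ALKBH5 then had no score to rank. The share of genes with a score at or under that of a member (for YTHDF1, at the upper limit of the −log10 score) moved with the reference. Among protein-coding genes of the strand it was 97.6% for YTHDC1 and 7.03% for YTHDF1. Among genes of both strands it was 94.2% for YTHDC1, 4.18% for YTHDF1, 45.9% for YTHDF2, 82.3% for YTHDF3 and 41.3% for ALKBH5. Among genes with the same number of peaks it was 91.3%, 7.13%, 39.1%, 97.7% and 15.0% in the same order. Without peaks shared with the opposite strand it was 18.1% for YTHDF2 and 69.5% for YTHDF3. The remaining shares stayed inside the 95% intervals of the main shares. Those intervals cover counting error over genes only and do not measure how stable the score of a member is. Placing peaks by the edge nearest the 3′ end moved the long YTHDF1 peak from 77.4 to 94.9% of the span and the third YTHDF3 peak from 44.5 to 45.8%.

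No paired analysis was possible because every score was computed over the 4 libraries at once, and for the same reason no library was left out in turn. Positions on exons were not analysed here. Depth is unknown, which limits the statements on YTHDC2 and FTO.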

Other observations

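Other RNA-binding proteins linked to m6A, and proteins that act with the YTH readers, were counted as well. Over all protein-coding genes, 29.4% on the plus and 55.6% on the minus strand had a listed peak, and 12.2% and 43.8% had one at or under the list median. Of 9 m6A-linked binding proteins outside the YTH family, 6 had a listed peak. By strand these were 1 of 2 plus-strand and 5 of 6 minus-strand genes, and 0 of 1 whose strand was not in the table used. At or under the list median these were 0 of 2 on the plus and 5 of 6 on the minus strand. HNRNPA2B1, a nuclear RNA-binding protein, had the smallest score of these, with 6 peaks and a score of 0. Of 9 partners of the YTH readers in decay, splicing, export, meiosis or granules, 5 had a peak, 2 of 4 on the plus strand, 2 of 3 on the minus strand and 1 of 2 whose strand was not in the table used. At or under the list median these were 1 of 4 on the plus and 1 of 3 on the minus strand. SRSF10, a splicing factor, had the smallest score of the partners (6.3e-26) and 3 peaks.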
